A study of Homo sapiens with 4 samples.

Results

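The genes described here were 10 growth arrest genes that are often called p53 targets, CDKN1A, MDM2, GADD45A, GADD45B, GADD45G, BTG1, BTG2, PLK3, SESN1 and TP53INP1. They were taken by gene name from the gene probes of the arrays, and made up 10 of the 14272 gene names on them. Each had 1 probe. They were read in K562, a human leukaemia cell line of erythroid type that is known to lack functional p53. The drug-treated group was K562 cells given AC-1041, a fluorescent thalidomide analog that binds lipid droplets, for 4 h. The control group was K562 cells kept for the same 4 h, which the labels call untreated and the study's methods describe as given the DMSO solvent. Each of 4 two-colour arrays received RNA of both groups. The treated RNA was in Cy5 on arrays 1 and 2 and in Cy3 on arrays 3 and 4. The dose is stated in the study's methods and not in the labels, and it is not used here.

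In most cells p53 is a transcription factor that is stabilised by DNA damage and other stress, and its targets stop the cell cycle or start apoptosis. CDKN1A encodes the cyclin-dependent kinase inhibitor p21, and MDM2 encodes the ubiquitin ligase that degrades p53 itself. The GADD45 proteins are small stress-induced partners of PCNA, of the mitotic kinase CDK1 and of the kinase MAP3K4. Several of these genes can also be switched on without p53, for example by ATF4 in endoplasmic reticulum stress or by NF-kB.

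The GADD45 genes are close relatives, so the start of each 60-base probe is shown to make clear that the arrays read them apart. The longest run of identical bases between any 2 of these 3 probes was 6 bases. The first 30 bases of each probe, as deposited, were
GADD45A: cctgccttaagtcaacttatttgtttttgc
GADD45B: tgagagcgagatgggaagcatagatatcta
GADD45G: caacgaggacgcctggaaggatcccgcctt
On hg18 the GADD45A probe lay at chr1:67925959-67926018, the GADD45B probe at chr19:2429178-2429237 and the GADD45G probe at chr9:91410709-91410768, each on the plus strand.

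AC-1041-treated K562 cells had higher levels of GADD45A, GADD45B, SESN1 and PLK3 RNA than control cells. TP53INP1 was called higher and BTG2 lower, but their usable arrays did not share a direction. Each of these calls was lost under some of the alternatives tried. MDM2 was called higher as well, but its dim probe entered the test only through the treated channel, so its call is a description. BTG1 and GADD45G did not pass the test, and CDKN1A could not be tested because its spot was marked as non-uniform on 2 of the 4 arrays. Of the 9 members tested, 6 rose (66.7%) and 1 fell (11.1%) at an adjusted p under 0.05 (limma, Benjamini-Hochberg over the 8852 probes tested). Among all probes tested, 24.3% rose and 13.0% fell. The 6 members that rose include MDM2, so that count is a description too. With every channel required to stand well above background, MDM2, GADD45G and SESN1 were not tested, and 4 of the 6 members left rose and 1 fell. Of the 5587 probes tested in that setting, 1342 rose and 1073 fell. The 9 members, with MDM2, had a median log2 ratio (treated over control) of 0.46, with an SD of 0.20 for the median between arrays. All probes tested had a median of 0.017. Under the stricter filter, without MDM2, the 6 members left had a median of 0.40 and all probes tested there one of -0.0016. A ratio here is per amount of RNA, so a change in every cell and a change in the share of cells with the RNA cannot be told apart.

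The 4 arrays were not alike, and this touches every value below. The log2 ratios of all probes correlated with r = 0.81 between arrays 1 and 2 and 0.94 between arrays 3 and 4, but with r from -0.29 to -0.12 between arrays of opposite dye orientation. The negative control spots scattered with an SD of 226 to 308 intensity units on arrays 1 and 2 and of 27.8 to 40.5 on arrays 3 and 4, so array quality and dye orientation cannot be told apart. The dye term of the fit passed an adjusted p of 0.05 for 58.2% of all probes tested and for 5 of the 9 members. Since the fit holds this term, its standard error (SE) leaves out the difference between orientations. The SE reflects how far apart arrays sharing an orientation lay, drawn by limma toward the spread typical of all probes tested. The SD printed beside it spans every array used. An exact sign-flip permutation test on 4 arrays cannot give a two-sided p below 0.125, so none is given for single genes. Of 8 K562 marker genes on the arrays, 6 stood well above background on every array in treated and control RNA alike, and 4 of the 8 fell. Among markers of other cells, ALB and MS4A1 were never well above background, whereas CD3D was so in either channel on 3 arrays, and CD14 on 3 in treated and 2 in control RNA. The part of these markers in the results was not tested.

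**Figure D1:**
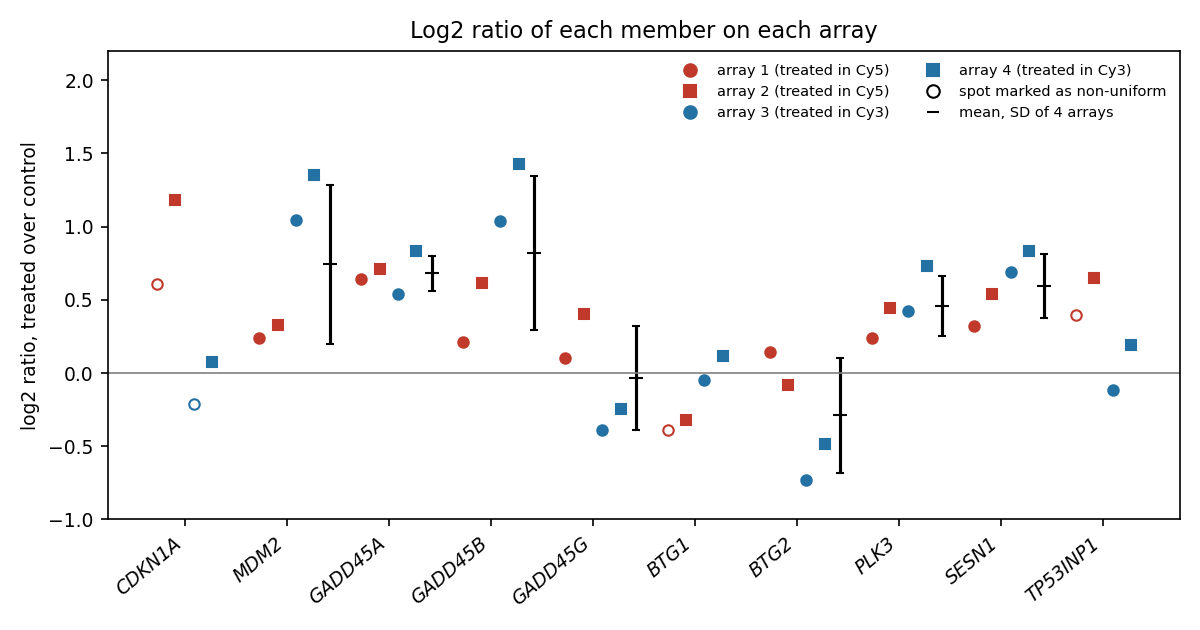
Log2 ratio of treated to control cells for each of the 10 genes on each of the 4 arrays, with the mean and SD of the 4 arrays beside genes whose spots were all usable; open symbols are spots marked as non-uniform. GADD45A was between 0.54 and 0.83 on every array, while GADD45B and MDM2 were highest on arrays 3 and 4 and BTG2 was above 0 only on array 1.

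GADD45A had the most even ratio of the members with 4 usable spots. Arrays 1, 2, 3 and 4 gave log2 ratios of 0.64, 0.71, 0.54 and 0.83. All arrays were on the same side, and the mean of arrays 1 and 2, 0.67, lay next to that of arrays 3 and 4, 0.69. On the fitted scale GADD45A was 1.60-fold higher in treated cells, a log2 ratio of 0.68 ± 0.12 (SD, n = 4 arrays; SE 0.073) with an adjusted p of 0.000257. Its dye term did not pass the test (adjusted p = 0.953). The normalized log2 intensity of its probe reached 16.67 in treated RNA and ran from 15.36 to 15.84 in control RNA, and no treated level overlapped the control levels.

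GADD45B, the member of the family known for its response to cytokines and NF-kB, had the largest fitted value of the 9 members under the processing reported, and MDM2 had a larger one with Feature Extraction's processed signals (1.11 against 0.82) and with the authors' series table (1.15 against 0.82). On arrays 1 to 4 the log2 ratios were 0.21, 0.61, 1.03 and 1.43. Treated cells were higher on each array, and the arrays with the treated RNA in Cy3 gave the larger values. The fit gave a 1.77-fold higher level, a log2 ratio of 0.82 ± 0.53 (SD, n = 4; SE 0.093) with an adjusted p of 0.000331. The 2 orientations differed by -0.82 (Cy5 minus Cy3, log2; adjusted p of the dye term 0.00584). Its level ran from 11.87 to 12.69 in treated and from 11.26 to 11.66 in control RNA, again without overlap.

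GADD45G was near background, being well above it in treated RNA on 1 array and in control RNA on 2. Arrays 1 and 2 read 0.10 and 0.40 (log2 ratio), and arrays 3 and 4 read -0.39 and -0.25. The sign followed the dye orientation. The fitted log2 ratio was -0.03 ± 0.36 (SD, n = 4; SE 0.075) with an adjusted p of 0.771 and a 95% confidence interval from -0.20 to 0.14. The interval of GADD45A ran from 0.51 to 0.85 and that of GADD45B from 0.61 to 1.04. Like the SE, these intervals leave out the difference between orientations, and single arrays of GADD45B and GADD45G lay outside them. The dim GADD45G signal limits what that probe could show, and the genes were not tested against each other.

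CDKN1A, the arrest gene best known as a p53 target, had usable spots on arrays 2 and 4 only. The former gave a log2 ratio of 1.18 and the latter 0.07. Feature Extraction marked the spot as non-uniform in both dyes on array 1 and in Cy5 on array 3. The probe itself was bright and well above background on every array in either channel. Net of local background, its intensity was 8453, 5819, 3269 and 3382 in treated RNA on arrays 1 to 4, and 5197, 1649, 3400 and 3185 in control RNA. The treated channel stood clear of the control channel on arrays 1 and 2 and not on arrays 3 and 4. With the marked spots kept, the log2 ratios were 0.61, 1.17, -0.21 and 0.08 on arrays 1 to 4. The fit on those values gave 0.41 ± 0.61 (SD, n = 4; SE 0.11) with an adjusted p of 0.0257, and its dye term gave an adjusted p of 0.00816. Without a dye term, on the 2 usable spots, the value was 0.63 with an adjusted p of 0.552. A difference in CDKN1A RNA between the groups was not settled by these arrays.

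**Figure D2:**
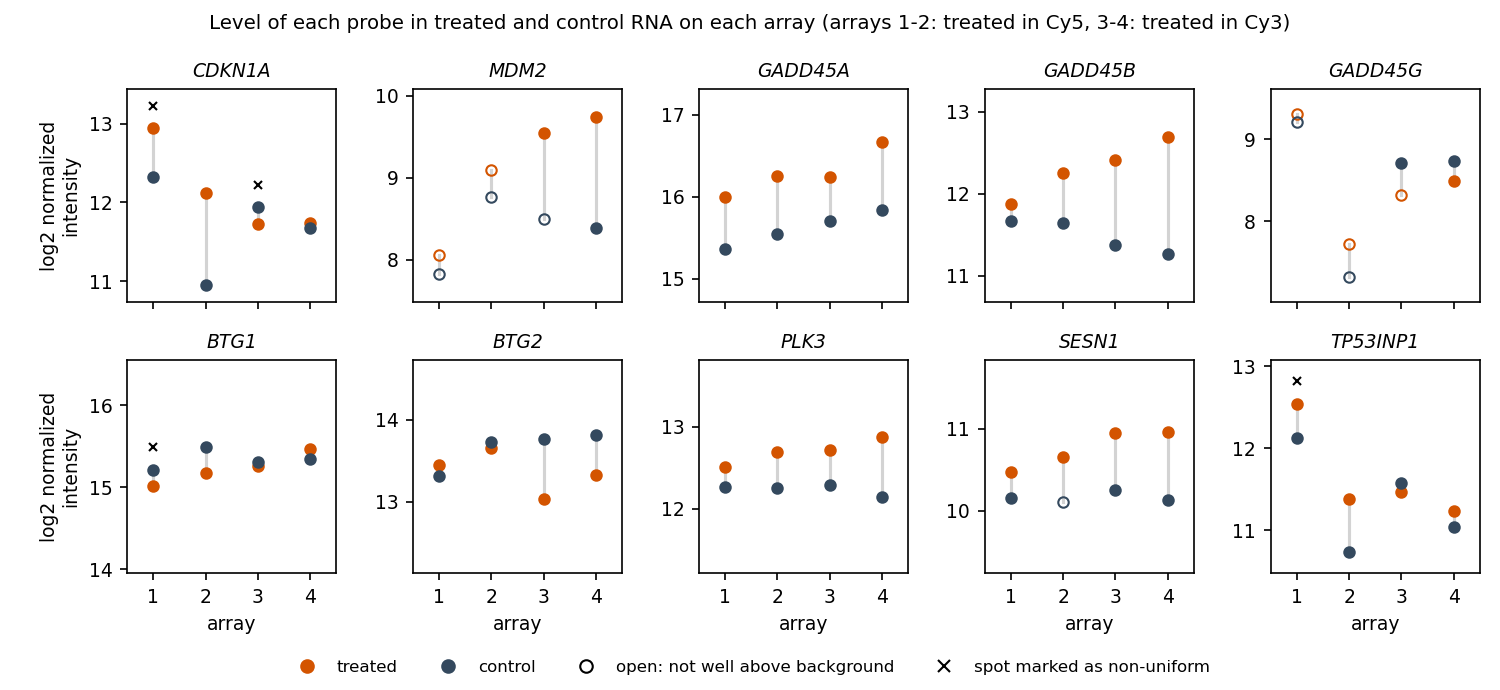
Normalized log2 intensity of each gene's probe in treated and control RNA on arrays 1 to 4; open circles are channels not well above background and crosses are spots marked as non-uniform. Treated lay above control on every array without overlap for GADD45A, GADD45B, PLK3 and SESN1, and the CDKN1A channels were furthest apart on array 2.

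MDM2, whose product targets p53 for degradation, was among the dim probes, at chr12:67520089-67520148 on the plus strand of hg18. It was well above background in treated RNA on arrays 3 and 4 and in control RNA on array 4 only. The log2 ratios of arrays 1 to 4 were 0.24, 0.33, 1.05 and 1.35. All arrays were above 0, and the arrays on which the probe stood clear of background had the larger ratios. The fitted log2 ratio was 0.74 ± 0.54 (SD, n = 4; SE 0.074) with an adjusted p of 0.000189, and 1.11 with processed signals and 1.15 with the series table. The control RNA was not well above background on 3 of the 4 arrays, and the probe met the filter only in the treated channel, where it was the brighter, so the size of the difference is uncertain. The difference between orientations was -0.92 (adjusted p of the dye term 0.0011), and the levels of the groups overlapped, at 8.06 to 9.74 in treated and 7.82 to 8.76 in control RNA.

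SESN1 and PLK3 had lower fitted values than GADD45B, with a narrower spread. The means of SESN1 and GADD45B were 0.43 and 0.41 on arrays 1 and 2, and 0.76 and 1.23 on arrays 3 and 4. The genes were not tested against each other. SESN1 encodes a sestrin, a stress-induced regulator of the redox state and of mTORC1, and its probe lay at chr6:109415170-109415229 on the minus strand. SESN1 read 0.32, 0.54, 0.69 and 0.83 (log2 ratio) on arrays 1 to 4. It was 1.51-fold higher, a log2 ratio of 0.60 ± 0.22 (SD, n = 4; SE 0.071) with an adjusted p of 0.000407, and its dye term did not pass (adjusted p = 0.0761). Treated levels of 10.48 to 10.96 lay above control levels of 10.11 to 10.26. PLK3 encodes a polo-like kinase of the stress and DNA damage response, with a probe at chr1:45044181-45044241 on the plus strand. PLK3 read 0.24, 0.44, 0.42 and 0.73 on the same arrays. It was 1.37-fold higher, a log2 ratio of 0.46 ± 0.20 (SD, n = 4; SE 0.078) with an adjusted p of 0.0024, and its dye term gave an adjusted p of 0.219. Here too the treated levels, 12.50 to 12.88, did not overlap the control levels, 12.15 to 12.29. Of the 7 members with 4 usable spots, these 4 genes, namely GADD45A, GADD45B, SESN1 and PLK3, had every treated level above every control level, as did 6.82% of the 7991 probes with 4 usable spots. These 4 genes were also higher in treated cells on each array, as were 16.7% of those probes. MDM2 was higher on each array too, but it is not counted with them because it met the filter only in the treated channel.

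TP53INP1, which encodes a nuclear protein that works with p53 in arrest and apoptosis, passed the test on 3 usable spots. Arrays 2, 3 and 4 gave log2 ratios of 0.65, -0.12 and 0.19, and the spot of array 1 was marked as non-uniform. The arrays did not share a direction. Array 2 alone gave the value of the Cy5 orientation. The spread behind the SE thus came from arrays 3 and 4 only, before limma drew it toward that of all probes. The fitted value, which gives both orientations equal weight, was 0.34 (SE 0.096; SD of the 3 arrays 0.38) with an adjusted p of 0.0284. With the marked spot kept, at 0.39 on array 1, it was 0.28 with an adjusted p of 0.0387. With Feature Extraction's processed signals it missed the threshold (0.38, adjusted p = 0.061), as it did on arrays 3 and 4 alone (0.03, adjusted p = 0.75). Over the alternatives tried its adjusted p ran from 0.00158 to 0.75.

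BTG1 and BTG2 encode antiproliferative proteins that bind the CCR4-NOT deadenylase, and both were bright. BTG2, at chr1:201545077-201545136 on the plus strand, had log2 ratios of 0.14, -0.08, -0.73 and -0.49 on arrays 1 to 4. It was lower in treated cells on 3 of 4 arrays, by the most on arrays 3 and 4. The fitted log2 ratio was -0.29 ± 0.39 (SD, n = 4; SE 0.075), a level 1.22-fold lower, with an adjusted p of 0.0172. The orientations differed by 0.64 (adjusted p of the dye term 0.00673), and the levels of 13.04 to 13.65 in treated and 13.31 to 13.81 in control RNA overlapped. The call was lost without array 3 (-0.23, adjusted p = 0.156) and without array 4 (-0.35, adjusted p = 0.0625), in a range of adjusted p from 3.99e-06 to 0.875 over the alternatives. BTG1 lay at chr12:91061679-91061738 on the minus strand, and the spot of array 1 was marked. It had log2 ratios of -0.32, -0.05 and 0.12 on arrays 2 to 4, with array 2 alone in the Cy5 orientation. Its fitted value of -0.14 (SE 0.087; SD of the 3 arrays 0.22) had an adjusted p of 0.239 and a 95% confidence interval from -0.34 to 0.06.

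**Figure D3:**
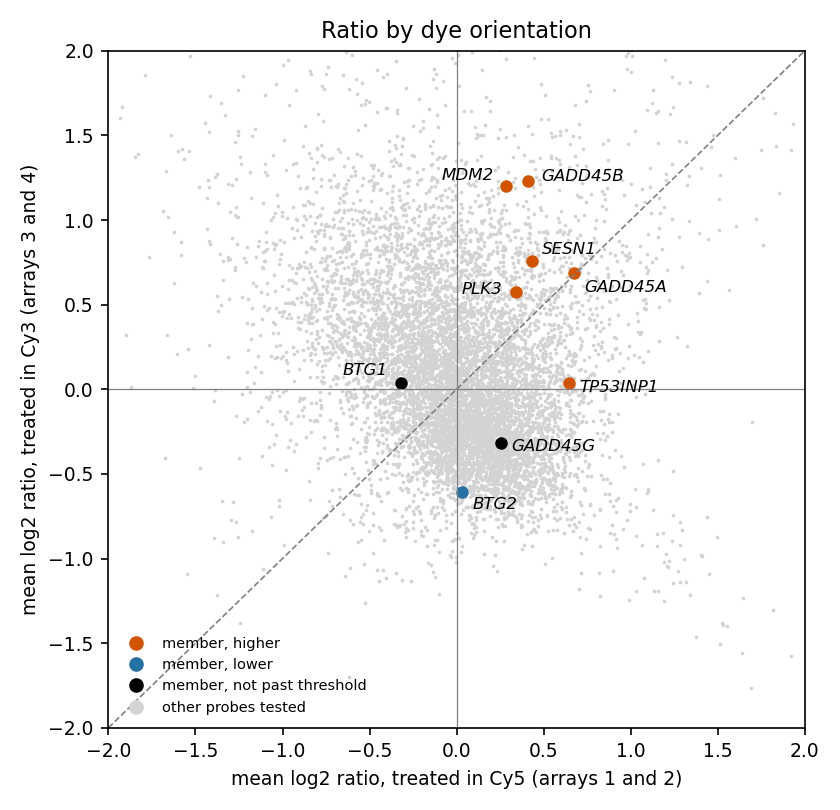
Mean log2 ratio of the arrays with the treated RNA in Cy5 (x axis) against the mean of those with it in Cy3 (y axis) for the 9 members tested and for all probes tested, with the dashed line marking equal values; probes beyond 2 on either axis are not shown. GADD45A lies on the line at 0.67 and 0.69, whereas MDM2 (0.28 and 1.2) and GADD45B (0.41 and 1.23) lie above it. TP53INP1 (0.65 and 0.03) lies below the line. For TP53INP1 and BTG1 the Cy5 value is that of array 2 alone.

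Read by dye orientation, the members fell into groups. The median of the 9 members was 0.34 on arrays 1 and 2 and 0.58 on arrays 3 and 4, against 0.03 and 0.04 for all probes tested. GADD45A, SESN1 and PLK3 were higher in both orientations with no called dye term. GADD45B and MDM2 were higher in both, with a called dye term and the larger values on arrays 3 and 4. BTG2 and GADD45G were above 0 in the first orientation, at 0.03 and 0.25, and below 0 in the second, at -0.61 and -0.32. In a fit of arrays 1 and 2 alone, GADD45A (0.67, adjusted p = 0.00524) and SESN1 (0.43) were the members called higher, while GADD45B (0.41, adjusted p = 0.0529), PLK3 (0.34, adjusted p = 0.0632) and MDM2 (0.28, adjusted p = 0.0952) kept their sign and missed the threshold. In a fit of arrays 3 and 4 alone, those 5 genes were called higher and BTG2 and GADD45G lower, of 9 members tested. Most probes were called in that fit, with 3392 higher and 2781 lower of 8853 tested. For arrays 1 and 2 alone these counts were 1323 and 1371 of 8018, with 7 members tested. The GADD45G probe stood well above background on 2 arrays in control RNA and on 1 in treated RNA, so its call is a description. Without a dye term in the limma fit of all 4 arrays, 0 of 10 members passed at an adjusted p under 0.05 and 5 were higher at an unadjusted p under 0.05, and the adjusted p nearest to the threshold was that of GADD45A (0.0692). The adjusted p of GADD45A over the alternatives ran from 2.06e-07 to 0.0692, that of GADD45B up to 0.168, that of MDM2 up to 0.222, that of PLK3 up to 0.186 and that of SESN1 up to 0.118.

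**Figure D4:**
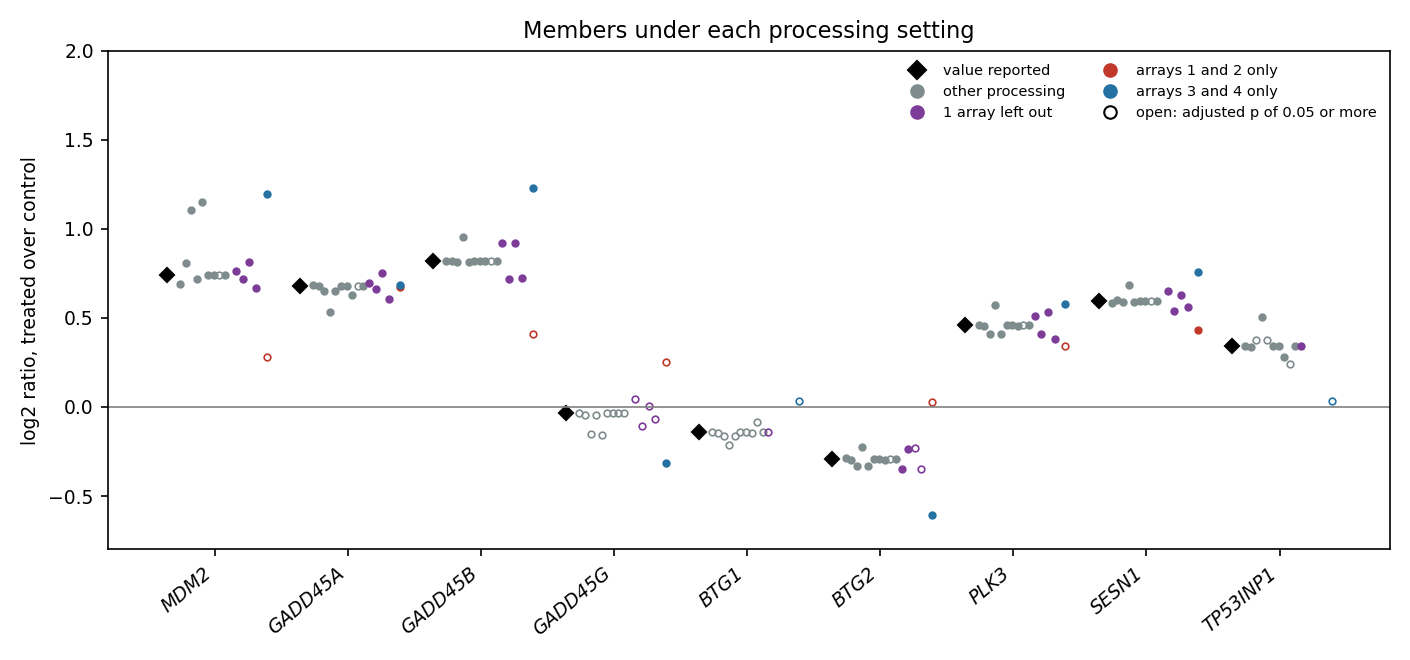
Log2 ratio of the 9 members tested under the processing reported (diamonds), other processing (grey), with 1 array left out (purple) and on the arrays of 1 dye orientation alone (red and blue); open circles have an adjusted p of 0.05 or more. GADD45A stays between 0.53 and 0.75 in all of them, whereas GADD45B runs from 0.41 to 1.23 and MDM2 from 0.28 to 1.2.

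Promoter sequences are shown for MDM2, PLK3 and SESN1, which were called higher and whose windows held a motif of a stress-responsive factor. Windows of 250 bases before the transcript start were taken from a table of RefSeq promoters on GRCh38.p14, which gave 13 windows for 8 of the 10 members. Windows of GADD45A and TP53INP1 were not analysed here. The motifs searched, on both strands, were the p53 decamer, the cAMP response element TGACGTCA, the AP-1 site TGACTCA, the ATF4 element TGATGNAA, the NF-kB site in its most common form, the CCAAT box CCAAT and the GC box GGGCGG. None of these motifs contains another. Their shares among 35116 windows were 5.57% for the p53 decamer, 1.65% for the cAMP response element, 4.2% for AP-1, 3.14% for the ATF4 element, 0.179% for NF-kB, 32% for the CCAAT box and 42.6% for the GC box. Capitals mark the AP-1 site in MDM2 (118 to 112 bases before the start), the ATF4 element in PLK3 (133 to 126 bases before) and the p53 decamer in SESN1 (49 to 40 bases before). In order, the windows are chr12:68808767-68809016 on the plus strand, chr1:44800127-44800376 on the plus strand and chr6:109008989-109009238 on the minus strand.
MDM2: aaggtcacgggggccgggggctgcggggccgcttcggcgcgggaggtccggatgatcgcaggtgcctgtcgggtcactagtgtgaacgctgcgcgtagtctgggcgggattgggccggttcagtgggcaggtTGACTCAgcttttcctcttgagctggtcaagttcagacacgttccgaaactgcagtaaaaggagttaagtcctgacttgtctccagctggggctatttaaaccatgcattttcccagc
PLK3: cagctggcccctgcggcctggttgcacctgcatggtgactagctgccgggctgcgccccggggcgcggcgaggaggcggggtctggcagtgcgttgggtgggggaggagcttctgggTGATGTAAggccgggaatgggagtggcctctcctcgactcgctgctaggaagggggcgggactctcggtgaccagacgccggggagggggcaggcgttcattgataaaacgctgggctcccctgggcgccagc
SESN1: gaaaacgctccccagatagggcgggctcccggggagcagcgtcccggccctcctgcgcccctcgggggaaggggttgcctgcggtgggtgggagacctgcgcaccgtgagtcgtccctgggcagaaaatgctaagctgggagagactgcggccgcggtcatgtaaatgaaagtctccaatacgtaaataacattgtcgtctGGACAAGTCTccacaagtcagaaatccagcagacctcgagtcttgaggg
The ATF4 element was also found in the GADD45G window, 102 to 95 bases before the start, and GADD45G did not pass the test. GADD45B was called higher, and its window held no p53 decamer, cAMP response element, AP-1 site, ATF4 element or NF-kB site. SESN1 also had windows without the decamer, and MDM2 had windows further upstream without the AP-1 site. Among these windows the strict p53 decamer matched in SESN1 alone, and the cAMP response element and the NF-kB site in the form searched matched in none. No mismatch was allowed, so p53 response elements that depart from the decamer were not marked. MDM2 is known to carry p53 response elements close to the start shown, and its window is not to be read as lacking them. A match is a description of the letters in the window and does not show binding, and motifs outside the windows were not searched.

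The relatives of these genes moved in both directions. Of 12 relatives on the arrays, 11 were tested, 6 rose and 2 fell, 72.7% in all against 37.4% of all probes tested, with a median log2 ratio of 0.31. SESN2, a sestrin like SESN1, had log2 ratios of 0.97, 1.91, 0.79 and 0.98 on arrays 1 to 4. It was 2.24-fold higher (log2 ratio 1.16 ± 0.51, SD, n = 4, SE 0.13, adjusted p = 0.000341). SESN3 was at -0.03 (adjusted p = 0.713), but its probe was dim. That probe was well above background in treated RNA on 2 arrays and in control RNA on 1, which limits what it could show. BTG3, of the BTG family, had log2 ratios of 0.42, 0.99, 1.41 and 1.57 and was 2.14-fold higher (1.1 ± 0.51, SD, n = 4; adjusted p = 9.8e-05), in contrast to the values of BTG1 and BTG2. TOB1, of the same family, was called lower at -0.26 (adjusted p = 0.0204), with log2 ratios of -0.50, -0.63, 0.16 and -0.08 on arrays 1 to 4. Its arrays did not share a direction, and its dye term was called (adjusted p of the dye term 0.00693). TOB2 was at 0.00 (adjusted p = 0.97). MDM4, the MDM2 relative that inhibits p53 without degrading it, had log2 ratios of 0.45, 0.45, 0.86 and 1.21 and was 1.67-fold higher (0.74 ± 0.37, SD, n = 4; adjusted p = 0.000214).

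The kinase inhibitors related to CDKN1A had called values that depended on orientation in size or sign. CDKN1B, which encodes p27, had log2 ratios of -0.75 and -0.35 on arrays 1 and 2 and of 1.78 and 1.57 on arrays 3 and 4. Its fitted value of 0.57 ± 1.3 (SD, n = 4) passed the test (adjusted p = 0.00124), but the orientations were of opposite sign (adjusted p of the dye term 2.56e-05). CDKN1C, which encodes p57, was below 0 on each array, at -1.37, -1.08, -0.07 and -0.32, and fell by 0.71 on the log2 scale (SD 0.61, n = 4; adjusted p = 0.000292). Of the polo-like kinases, PLK4 was called higher (0.31, adjusted p = 0.01). It had log2 ratios of -0.08, 0.14, 0.64 and 0.53 on arrays 1 to 4 (adjusted p of the dye term 0.0095). PLK1 was at -0.07 (adjusted p = 0.494), with orientation means of opposite sign, 0.47 in Cy5 and -0.61 in Cy3. PLK2 was not well above background on any array. TP53INP2 was called higher as well (0.49, adjusted p = 0.005), on a probe well above background on 2 arrays in treated and 2 in control RNA.

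Other genes often called p53 targets moved in both directions too. Of 42 genes listed, 37 were found on the arrays by name and 30 were tested, of which 14 rose (46.7%) and 8 fell (26.7%), against 24.3% and 13.0% of all probes. CCNG2, PIDD1, PRDM1, RPS27L and TIGAR were not analysed here. Their median log2 ratio was 0.13. The largest rise was that of GDF15, a secreted stress cytokine, with log2 ratios of 1.18, 2.33, 1.55 and 1.90 and a fitted value of 1.74 ± 0.49 (SD, n = 4; adjusted p = 0.000128). The pro-apoptotic genes PMAIP1 (1.24, adjusted p = 2.04e-05), APAF1 (1.07, adjusted p = 3.45e-05) and BBC3 (1.01, adjusted p = 2.57e-05) and the phosphatase gene PPM1D (2.01-fold, adjusted p = 2.25e-05), whose product dampens p53 signalling, followed. The lowest values were those of ZMAT3 (-0.52, adjusted p = 0.000531), EI24 (-0.52, adjusted p = 0.000868), TNFRSF10A (-0.31, adjusted p = 0.0108), STEAP3 (-0.29, adjusted p = 0.0313) and AEN (-0.26, adjusted p = 0.0175). Of the 30 genes tested, 13 were higher on all 4 arrays and 7 lower on all 4, against 16.7% and 9.19% of the probes with 4 usable spots.

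Genes for the proteins that the members bind or inhibit had fitted values close to 0, but several had opposite signs in the 2 dye orientations. Of 12 such genes, among them those for cyclins, cyclin-dependent kinases, PCNA and the deadenylase subunits CNOT7 and CNOT8, 11 were tested, and 1 passed the test (9.09%, against 37.4% of all probes). This was MAP3K4, the kinase that GADD45 proteins activate, with log2 ratios of 0.58, 0.69, -0.20 and 0.04 on arrays 1 to 4 and a fitted value of 0.28 (SE 0.071; adjusted p = 0.0168). Its orientations differed (adjusted p of the dye term 0.00308), as array 3 was below 0. The median of the 11 genes was -0.05, and their fitted values ran from -0.18 to 0.28. The dye term was called for 5 of the 11, of which CNOT7 and MAPK14 are given after their values were seen. CNOT7 read -1.01, -1.08, 0.97 and 0.74 on arrays 1 to 4, and MAPK14, which encodes the kinase p38, read -0.59, -0.65, 0.50 and 0.51, so their fitted values near 0 averaged opposite values. In a fit of arrays 1 and 2 alone, 3 of 9 partners tested were called, while 1323 of all 8018 probes were higher and 1371 lower. In a fit of arrays 3 and 4 alone, 4 of 11 were called, while 3392 of all 8853 probes were higher and 2781 lower.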

How the data were processed

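Two-colour array data of 4 arrays were used. The authors scanned the arrays with extended range, quantified spots with Feature Extraction 9.5.1.1 and deposited intensity values of spots and local background per channel, without normalization, beside processed intensity values corrected for background and dye. The deposited files also hold a log10 ratio of Cy5 to Cy3. The authors' series table of log10 ratios was found to read treated over control, since on each array 99.9% to 100% of its entries differed by under 0.001 from that ratio once the sign of arrays 3 and 4 was turned, and its column medians were 0. The deposited files mark non-uniform, saturated and background-level spots with flags.

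From the intensities, log2 ratios were computed with R 4.3.3 and limma 3.58.1 by normexp (offset 50) over all spots and loess within each array (span 0.3, control and marked spots at weight 0). Marked spots were left out, 1.57% to 8.08% of probes per array. Probes that stood well above background on 2 or more arrays, in either channel, were fitted on treatment and dye, and p-values were adjusted by Benjamini-Hochberg. Levels per channel were also scaled between arrays by Aquantile. All arrays lay on 1 slide, so slide was no block. The fitting step was run on simulated ratios of the 8852 probes, with independent noise and the fitted dye term. There 86% of 200 changes of log2 ratio 1 were recovered and 1.71% of calls were false. These shares do not carry over to the real arrays, where members changed by less and array quality went with orientation. Other genes were named by transcript accession through RefSeq of GRCh38.p14 (12002 of 14297 probes), and probe positions are hg18 as in the files. The methods state that treated and control samples were collected in quadruplicate, but neither they nor the labels say which sample went on which array. Nor do they say whether cultures were separate. In fits with a dye term, p-values measure the spread between arrays of the same orientation, moderated by limma over all probes. That spread may be technical, and the number of arrays limits the precision. The genes named are all members, all relatives, and up to 5 called genes of largest change in each direction of the other lists. Members and lists were chosen with earlier results of these data known. Alternatives covered background correction, normalization, dim and marked spots, the dye term, array weights, thresholds and leaving out arrays. Some marker results are not reported here.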

Additional observations from a re-analysis of the deposited data

Results flagged for a closer look

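In 57 genes of the lists with 4 usable arrays, the gap between the highest or lowest array and its neighbour was divided by the whole range and compared with Dixon's limit for 4 values. Chance passes this limit in about 1 of 20 genes, and 2 genes did. For SESN2 the gap was 0.836 of the range, because array 2 was at 1.91 while the others lay between 0.79 and 0.98. For STEAP3 it was 0.854, because array 4 was at -0.62 while the others lay between -0.20 and -0.13. None of the 7 members looked at passed the limit.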

How the results depend on the processing

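Against 6 members higher and 1 lower, the limma fit without a dye term called 0 and 0 (5 and 0 at an unadjusted p under 0.05). Arrays with the treated RNA in Cy5 alone called 2 and 0 of the 7 members tested there. These fits per orientation were chosen after seeing the data. The 1 lower member became 0 at an adjusted p under 0.01 and at 1.5-fold or more, 2 on arrays with the treated RNA in Cy3 alone, and 0 to 1 with 1 array left out. The median of the members stayed between 0.34 and 0.63 in every setting.

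Of single members, the sign turned for GADD45G with 1 array left out (-0.11 without array 2 to 0.044 without array 1, and 0.0037 without array 3) and on the Cy5 arrays (0.25), for BTG2 on the Cy5 arrays (0.029) and for BTG1 on the Cy3 arrays (0.034). Called relatives (8) became 0 without a dye term (4 higher and 1 lower unadjusted) and 4 at 1.5-fold or more, and 5 to 8 with 1 array left out. Called genes among the other targets (22) became 3 without a dye term, 14 at an adjusted p under 0.01 and 8 at 1.5-fold or more, and 13 to 23 with 1 array left out. Called partners (1) became 0 in those 3 settings, 2 with median centring, 3 on the Cy5 arrays, 4 on the Cy3 arrays and 0 to 1 with 1 array left out.

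Of all probes, 2155 were called higher and 1152 lower. Without a dye term these were 52 and 4, at an adjusted p under 0.01 1353 and 468, and at 1.5-fold or more 535 and 103. With 1 array left out they ran from 1008 to 2590 and from 283 to 1469, the fewest without array 4. On the Cy3 arrays they were 3392 and 2781, on the Cy5 arrays 1323 were higher, with probes kept only where every channel stood well above background 1342 were higher, and with median centring 596 were lower. Median centring made 79.9% of calls higher, against 65.2%. The cause of these shifts was not tested, beyond the fewer arrays or the stricter limits of the settings themselves. Each member had 1 probe, so no other probe could be tried. Among the members, dim signal limited GADD45G and MDM2, and among the relatives tested SESN3 and TP53INP2. The fit used the ratio of treated to control RNA within each array, so the groups were paired by array. No further pairing could be made, since the labels hold 1 group.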
